A study of Homo sapiens with 38 samples.

Results

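PFEIFFER is an established human cell line of diffuse large B-cell lymphoma, an aggressive cancer of mature B cells. The libraries described here are those with PFEIFFER in their title, 7 of the 37 libraries that had a column of gene counts. The study kept 6 such lymphoma lines with vorinostat, with pracinostat or with the solvent DMSO for 6 h or 14 days and sequenced their RNA. For PFEIFFER there was 1 DMSO, 1 pracinostat and 1 vorinostat library at 6 h. At 14 days there were 2 DMSO libraries, titled DMSOP and DMSOV, 1 pracinostat and 1 vorinostat library. Doses were not given in the sources used here, and nothing said whether libraries came from separate cultures. The p-values below therefore measure the spread between these libraries, which may be technical. In fits with 1 inhibitor effect for both times, that spread also holds the difference of the effect between the times. The 2 compounds were treated as 1 HDAC inhibitor group, since each had 1 library at each time. In those fits the spread therefore also holds the difference between the compounds. PFEIFFER is 1 line, so every result is a property of these cultures of 1 line. In RNA from bulk culture, a change in the share of cells in some state and a change in RNA per cell cannot be told apart.

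Histone deacetylases (HDACs) take acetyl groups off the lysines of histones and of many other proteins. Vorinostat and pracinostat are hydroxamic acids that bind the zinc ion in the active site of these enzymes, so that acetylation accumulates and the activity of many genes shifts in both directions. In lymphoma cells this class of drug is known for raising CDKN1A, which codes for the cell cycle inhibitor p21, for slowing division and for changing the balance of death and survival genes. B cells present antigen on MHC class II molecules, whose genes are switched on by the coactivator CIITA.

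The 7 libraries held between 5495030 and 8359776 counts. Levels are given as CPM, the count of a gene relative to the library total, after scaling by the trimmed mean of M-values, and 3 counts, the limit that a count of 0 allows, corresponded to between 0.354 and 0.501 CPM on that scale. Where values of a pair of libraries are printed together, pracinostat comes before vorinostat and DMSOP before DMSOV. Of the 11467 genes whose log2 CPM averaged 2 or more, the DMSOP and DMSOV libraries differed by at least 2-fold in 22, whereas the 6 h DMSO library differed from the mean of the 14 day DMSO libraries in 386. Each time was therefore compared with its own DMSO. All 7 B-cell markers looked for, such as MS4A1 (CD20), CD79B and PAX5, were counted in every library, with summed levels of 10245 to 13638 CPM in DMSO and 8252 to 20002 CPM with inhibitor. T or NK cell markers summed to at most 11.6 CPM in any library, and myeloid markers to at most 1.75 CPM in DMSO. The line carried high counts of CD8A, a T-cell coreceptor, with 1305 CPM in DMSO at 6 h and 1174 and 1204 CPM at 14 days, and of the epithelial gene EPCAM, with 267 CPM and 285 and 282 CPM. Counts from the mitochondrial genome made up 6.17 to 6.76% of a DMSO library, 5.30 to 5.43% with inhibitor at 6 h and 10.5 to 11.1% with inhibitor at 14 days, and their part in the results at 14 days was not tested.

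**Figure D1:**
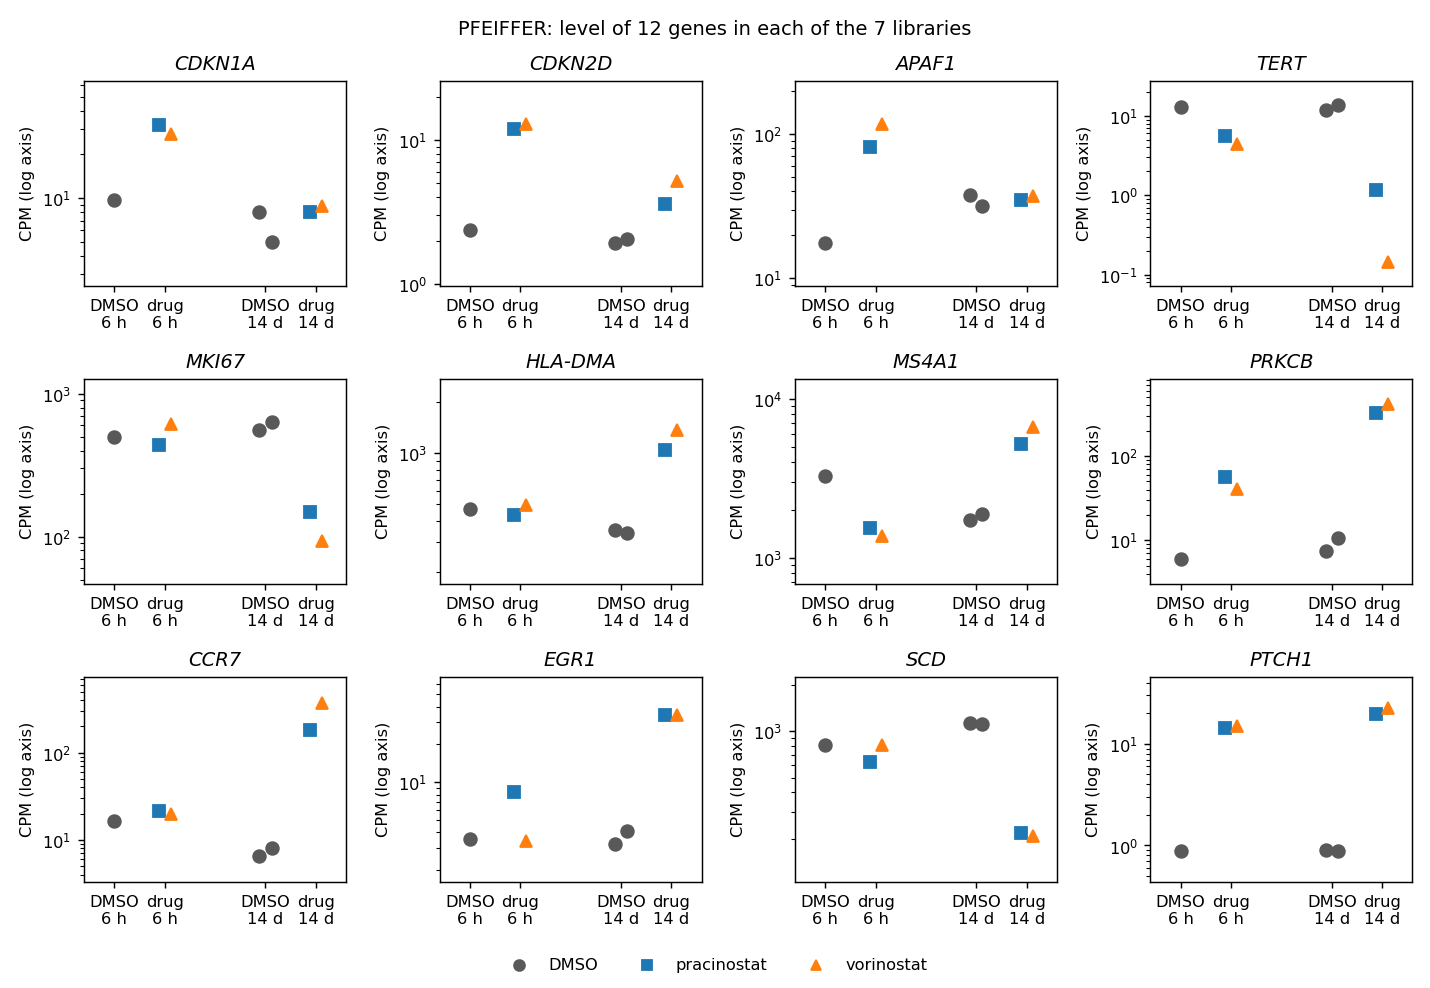
Levels of 12 genes in each PFEIFFER library, in CPM on a log axis. Each point is 1 library, with DMSO, pracinostat and vorinostat libraries of 6 h and of 14 days in columns. CDKN1A and APAF1 were high with either inhibitor at 6 h and near the DMSO level at 14 days, whereas MKI67 fell and HLA-DMA and CCR7 rose at 14 days and none of these 3 was called at 6 h.

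The first comparison set the 4 inhibitor libraries of both times against the 3 DMSO libraries, with time as a block. A group of genes that were low or all but silent in DMSO was higher in all 4 inhibitor libraries, among them BASP1, RGS8, PECAM1, NCAM1, CCND2 and PRKCB, and a smaller group fell at both times, led by genes of the lymphokine IL4, the amino acid oxidase IL4I1, telomerase and a calcium channel. Of 15340 genes tested with edgeR, 3718 (24.2%) passed an adjusted p of 0.05, the threshold used throughout. Of all genes tested, 14.2% (2185) were higher and 9.99% (1533) lower with inhibitor, and the median log2 fold change over all genes was 0.03. In 2062 genes called higher (13.4% of those tested) every inhibitor library lay above the DMSO libraries of its own time, and in 1491 called lower (9.72%) every inhibitor library lay below them. The count of called genes depended on single libraries. It was 1662 without DMSOP, 1686 without DMSOV, 2156 and 1840 without the 14 day pracinostat and vorinostat libraries, 2402 without pracinostat at 6 h, and 7119 without the 6 h DMSO library, which leaves 14 days alone.

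PRKCB codes for protein kinase C beta, which passes on the signal of the B-cell receptor. It stood at 6.05 CPM in DMSO against 56 and 40.1 CPM with the inhibitors at 6 h, and at 7.51 and 10.5 CPM against 323 and 411 CPM at 14 days. All 4 inhibitor libraries lay far above all 3 DMSO libraries (log2 fold change 4.49 ± 0.50, adjusted p = 0.00123). BASP1, a membrane protein and transcriptional cofactor, stood at 0.886 CPM in DMSO and 14.4 and 9.56 CPM with inhibitor at 6 h, and at 0.518 and 0.438 CPM and 55.1 and 55.2 CPM at 14 days. Here too the groups did not overlap at either time, and the level with inhibitor was higher at 14 days than at 6 h (adjusted p over both times = 0.000813). Absence of overlap at both times was a condition for naming genes by size in this comparison, so it is no separate result. The adhesion molecule PECAM1 had no count in DMSO at 6 h, where both inhibitor libraries were at least 9.87-fold above the limit that 0 counts allow, with 6.18 and 4.37 CPM. At 14 days it rose from 0.518 and 1.17 CPM to 29.9 and 27 CPM (adjusted p over both times = 0.000596). NCAM1, an adhesion molecule best known from neurons and NK cells, likewise had no count in the 6 h DMSO library and 2.34 and 1.53 CPM with inhibitor, and 0.129 and 0.584 CPM against 17.5 and 16 CPM at 14 days (adjusted p = 0.000813). CCND2, a cyclin of the G1 phase, went from 0.295 CPM to 5.18 and 4.25 CPM at 6 h and from 0.129 and 0.438 CPM to 15.2 and 11.7 CPM at 14 days (adjusted p = 0.000813). Apart from PRKCB, these genes held at most 1.17 CPM in any DMSO library, so no fold change is given for them.

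Other genes that rose at both times belong to chromatin, cell death and the neuronal list, and do not stand for these lists as a whole. Of 13 neuronal genes tested 5 rose and none fell over both times, and at 14 days 5 rose and 3 fell. Of 12 genes of the Polycomb list only JARID2 was called over both times, and at 14 days 3 rose and 4 fell. Of all genes tested, 25.3% rose and 21.7% fell at 14 days. JARID2, a subunit that guides Polycomb repressive complex 2, went from 8.41 CPM to 26.1 and 28.3 CPM at 6 h and from 10.2 and 7.15 CPM to 31.2 and 28 CPM at 14 days (log2 fold change 1.74 ± 0.19, adjusted p = 0.00117). BMF, a BH3-only protein that promotes apoptosis, went from 6.2 CPM to 27.2 and 29.9 CPM and from 7.12 and 4.53 CPM to 26.2 and 44.9 CPM (log2 fold change 2.44 ± 0.27, adjusted p = 0.00119). The 4 inhibitor libraries of JARID2 and of BMF lay above all 3 DMSO libraries. MAPT, which codes for the neuronal protein tau, rose to a like extent at both times, from 8.12 CPM to 51.3 and 45.2 CPM and from 12 and 12.7 CPM to 54.1 and 55.6 CPM (log2 fold change 2.30 ± 0.16, adjusted p = 0.000435). NRXN2, a synaptic adhesion protein, rose further, from 1.62 CPM to 20.1 and 14.6 CPM and from 0.906 and 0.876 CPM to 21.2 and 16.3 CPM (log2 fold change 3.97 ± 0.31, adjusted p = 0.000596). In the other direction stood KAT5 and KAT6B, 2 histone acetyltransferases. KAT5 read 26.3 CPM in DMSO against 5.01 and 5.19 CPM at 6 h and 18.9 and 19.3 CPM against 10.8 and 10.7 CPM at 14 days (log2 fold change -1.45 ± 0.30, adjusted p = 0.011). KAT6B read 67.5 CPM against 35.6 and 28.4 CPM and 80.3 and 86 CPM against 43.1 and 27.6 CPM (log2 fold change -1.17 ± 0.18, adjusted p = 0.00365).

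Among the genes that fell at both times, CACNA1D codes for the pore of an L-type calcium channel. It stood at 179 CPM in DMSO and 56.1 and 44.1 CPM with inhibitor at 6 h, and at 190.0 and 177 CPM and 24.3 and 17.5 CPM at 14 days (log2 fold change -2.63 ± 0.28, adjusted p = 0.00119). The cytokine gene IL4 (chr5:132673986-132682676, plus strand, hg38) went from 38.7 CPM to 5.18 and 4.25 CPM and from 27.1 and 24.1 CPM to 6.16 and 5.63 CPM (log2 fold change -2.50 ± 0.23, adjusted p = 0.000904). In both genes every inhibitor library lay below every DMSO library. Separation within each time was a condition for naming falls by size as well. The glycosyltransferase gene B3GALNT1 went from 20.7 CPM to 5.35 and 3.07 CPM at 6 h and from 12.4 and 13.4 CPM to 2.18 and 0.578 CPM at 14 days (log2 fold change -2.77 ± 0.38, adjusted p = 0.00246). The glycine transporter gene SLC6A9 went from 7.53 CPM to 1.84 and 1.77 CPM and from 9.06 and 8.18 CPM to 0.771 and 1.01 CPM (log2 fold change -2.70 ± 0.33, adjusted p = 0.00158). For IL4I1 the DMSO libraries themselves differed, with 30.4 CPM at 6 h and 4.14 and 3.65 CPM at 14 days, against 6.52 and 1.77 CPM and 0.771 and 0.433 CPM with inhibitor (log2 fold change -2.82 ± 0.43, adjusted p = 0.00362). TERT, the catalytic subunit of telomerase (chr5:1253147-1295069, minus strand, hg38), fell from 13 CPM to 5.51 and 4.49 CPM at 6 h. At 14 days it stood at 11.9 and 13.7 CPM in DMSO and 1.16 and 0.144 CPM with inhibitor (log2 fold change at 14 days -4.21 ± 0.44, adjusted p = 5.54e-06). Its call over both times (adjusted p = 0.0128) did not hold without the 14 day pracinostat library (adjusted p = 0.057).

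At 6 h the known targets of this drug class rose while B-cell, NF-kB and survival genes fell. Of the 15340 genes, 3936 (25.7%) were called, 1980 higher (12.9%) and 1956 lower (12.8%), with a median log2 fold change of 0.00. Scaled by library totals alone, 2518 were higher and 1485 lower and the median moved to 0.11, so that changes under about 0.1 on the log2 scale have no firm sign. Because a single DMSO library stood against the pair of inhibitor libraries, the same genes were also looked up in the 14 day DMSO libraries. Of the 1980 genes called higher, 1768 were also above both of those libraries, and of the 1956 called lower, 1774 were also below both. The same count was not made over all genes tested, so these counts have no background beside them.

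Of 12 genes known to respond to HDAC inhibitors, 7 rose and none fell at 6 h (median log2 fold change 1.51), and of 7 genes of CDK inhibitors 5 rose and none fell (median 1.61). CDKN1A (chr6:36676460-36687339, plus strand, hg38) stood at 9.74 CPM in DMSO and 32.1 and 27.7 CPM with the inhibitors (log2 fold change 1.61 ± 0.29, adjusted p = 0.00134). CDKN2D, the INK4 inhibitor p19, went from 2.36 CPM to 11.9 and 12.9 CPM (log2 fold change 2.38 ± 0.40, adjusted p = 0.000813), and CDKN2C, the inhibitor p18, from 20.7 CPM to 39.1 and 49.2 CPM (log2 fold change 1.10 ± 0.21, adjusted p = 0.00198). In all 3 genes both inhibitor libraries also lay above both 14 day DMSO libraries. H1F0, a linker histone known to be induced by this drug class, went from 239.9 CPM to 674 and 1078 CPM (log2 fold change 1.87 ± 0.30, adjusted p = 0.000908). The histone demethylase gene KDM5B went from 47.5 CPM to 115 and 152 CPM (log2 fold change 1.49 ± 0.20, adjusted p = 0.000168), with 14 day DMSO libraries in between at 92.2 and 92.1 CPM. HEY1, a repressor of the Notch pathway, went from 0.738 CPM to 10.4 and 12.2 CPM (log2 fold change 3.91 ± 0.53, adjusted p = 0.000214). APAF1, which builds the apoptosome around cytochrome c, had the highest 6 h fold change among 20 pro-apoptotic genes, from 17.7 CPM to 81.4 and 117 CPM (log2 fold change 2.49 ± 0.25, adjusted p = 2.65e-05). CASP10 and VWA5B2 each had 1 count in the 6 h DMSO library. CASP10, an initiator caspase, stood at 0.148 CPM in DMSO and 6.35 and 6.02 CPM with inhibitor (adjusted p = 0.000183), and VWA5B2 at 0.148 CPM and 11.5 and 11.7 CPM (adjusted p = 3.95e-05). The 14 day DMSO libraries held 2.07 and 2.04 CPM of CASP10, so its 6 h fold depends on which DMSO library it is set against. Of the pro-apoptotic list as a whole, 4 rose and 2 fell, and 2 rose without vorinostat.

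Of 11 genes of histone acetyltransferases 6 fell and none rose at 6 h (median -0.69), whereas of 10 HDAC genes HDAC7 fell and no other was called. Without pracinostat 2 HDAC genes and 2 acetyltransferases rose, and with the DMSO libraries pooled 3 HDAC genes rose. HDAC7, a class II deacetylase prominent in B cells, went from 246 CPM to 84.9 and 81.8 CPM (log2 fold change -1.56 ± 0.15, adjusted p = 2.6e-05). KAT2A, the GCN5 acetyltransferase, went from 112 CPM to 63.3 and 56.1 CPM (log2 fold change -0.91 ± 0.16, adjusted p = 0.000964). PHF19, a Polycomb-like protein that recruits Polycomb repressive complex 2, showed a further fall, from 312 CPM to 65.5 and 62.7 CPM (log2 fold change -2.29 ± 0.16, adjusted p = 4.8e-06). The 14 day DMSO libraries lay close to the 6 h DMSO library for HDAC7 and KAT2A, and at 229 and 236 CPM for PHF19.

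Of 27 B-cell identity genes 13 fell and 2 rose at 6 h, with a median of -0.74. Without any 1 library between 13 and 16 of them fell, and 10 fell when the DMSO libraries of both times were pooled, an alternative chosen after the data were seen. CD79B, the signalling chain of the B-cell receptor, went from 1194 CPM to 482 and 459 CPM (log2 fold change -1.34 ± 0.15, adjusted p = 4.68e-05). The transcription factor PAX5 went from 612 CPM to 316 and 352 CPM (log2 fold change -0.87 ± 0.15, adjusted p = 0.00102) and the Ikaros family factor IKZF3 from 1483 CPM to 621 and 594 CPM (log2 fold change -1.29 ± 0.16, adjusted p = 0.000112). In these 3 genes the inhibitor libraries lay below all 3 DMSO libraries. TNFRSF17, the receptor BCMA of late B cells, went from 327 CPM to 85.1 and 94 CPM (log2 fold change -1.87 ± 0.15, adjusted p = 7.02e-06), and the heavy chain gene IGHG1 from 115 CPM to 18.5 and 10.9 CPM (log2 fold change -3.00 ± 0.22, adjusted p = 5.03e-06). MS4A1 went from 3240.5 CPM to 1532 and 1366 CPM (log2 fold change -1.16 ± 0.17, adjusted p = 0.000312), but the 14 day DMSO libraries were at 1731 and 1878 CPM, and with the DMSO libraries pooled its change was -0.66 (adjusted p = 0.0554). Germinal centre genes, which mark the stage from which many of these lymphomas arise, split, with 9 of 18 higher and 4 lower. MYBL1 was among the higher, from 33.1 CPM to 100.3 and 138 CPM (log2 fold change 1.85 ± 0.21, adjusted p = 6.85e-05), and the receptor S1PR2, which holds B cells in the germinal centre, among the lower, from 146 CPM to 51.3 and 45.7 CPM (log2 fold change -1.60 ± 0.18, adjusted p = 5.25e-05).

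Of 16 NF-kB genes 9 fell and none rose at 6 h (median -0.49), and of 9 anti-apoptotic genes 5 fell and none rose (median -0.62), of which 3 fell with the DMSO libraries pooled. TRAF1, an adaptor of TNF receptors and an NF-kB target, went from 309.6 CPM to 125 and 103 CPM (log2 fold change -1.44 ± 0.16, adjusted p = 5.2e-05). RELB, a subunit of NF-kB, went from 103 CPM to 48.1 and 35.3 CPM (log2 fold change -1.31 ± 0.25, adjusted p = 0.00195). CFLAR, which blocks caspase-8, went from 204 CPM to 91.1 and 82.4 CPM (log2 fold change -1.23 ± 0.16, adjusted p = 0.000136) and BCL2, the founding survival protein, from 108 CPM to 63 and 69.1 CPM (log2 fold change -0.71 ± 0.16, adjusted p = 0.00527). For CFLAR and BCL2 the 14 day DMSO libraries were close to the 6 h one, at 211 and 233 CPM and 105 and 109.6 CPM. That was not so for BCL2L1, the survival protein BCL-XL, which went from 189 CPM to 84.6 and 69.5 CPM (log2 fold change -1.30 ± 0.16, adjusted p = 0.000105) beside 14 day DMSO values of 95.8 and 95.8 CPM, and whose call did not hold with the DMSO libraries pooled (-0.72, adjusted p = 0.0623). MYC went from 312 CPM to 119 and 125 CPM (log2 fold change -1.35 ± 0.19, adjusted p = 0.000241), and of 25 genes of MYC and ribosome biogenesis 9 fell and none rose, and 14 fell without vorinostat. Among secreted factors, IL10 went from 12.8 CPM to 0.334 and 1.18 CPM (log2 fold change -3.94 ± 0.44, adjusted p = 5.46e-05), with 2.07 and 1.9 CPM in 14 day DMSO and no call with the DMSO libraries pooled (-2.74, adjusted p = 0.0774).

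Genes of cell division had hardly moved at 6 h. Of 25 genes of the G2 and M phases 3 rose and 1 fell, and of 25 genes of G1/S and DNA replication 2 rose and 3 fell. Without the 6 h pracinostat library 6 G2/M genes rose, and 5 G1/S genes rose and 6 fell. Without the 6 h vorinostat library 1 G2/M gene rose, and 0 G1/S genes rose and 3 fell. The mitotic kinesin KIF11 was among the 3 that rose, from 146 CPM to 223 and 304 CPM (log2 fold change 0.85 ± 0.20, adjusted p = 0.00655). MKI67, which codes for the proliferation antigen Ki-67, stood at 495 CPM in DMSO and 436 and 617 CPM with inhibitor and was not called. Heat shock genes leaned upward, with 4 of 11 higher and none lower (8 higher without pracinostat and 2 without vorinostat). HSPA1A, an inducible HSP70, went from 11.8 CPM to 30.2 and 57.1 CPM (log2 fold change 1.90 ± 0.41, adjusted p = 0.00606), and its near-identical copy HSPA1B from 22.7 CPM to 47 and 58 CPM (log2 fold change 1.21 ± 0.21, adjusted p = 0.00118). Reads of these copies cannot be told apart with certainty.

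After 14 days the picture was one of lower division and lipid synthesis genes and higher antigen presentation, B-cell activation and immediate early genes. Of the 15340 genes 7205 (47%) were called, 3882 higher (25.3%) and 3323 lower (21.7%), with a median of 0.07, and 3541 changed at least 2-fold. Without DMSOP 4527 were called and without DMSOV 4732. A count of members at 14 days therefore has to be read against a background in which nearly as many genes were called as not. Separation of inhibitor from DMSO libraries was common too. It held at both times in the same direction for 3241 higher and 2818 lower genes, called or not. That count was not made for 14 days alone, so separation named below has no background of its own.

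The promoters of the MHC class II genes and of the G2/M genes are shown because both lists moved as a block at 14 days, in opposite directions, and because both hold one short motif, CCAAT, the core of the site of the factor NF-Y. The 250 bases before the RefSeq start (GRCh38.p14) are printed 5′ to 3′ on the strand of the gene, with CCAAT, its reverse complement ATTGG and, in the cyclin genes, TTTGAA or its reverse complement TTCAAA in capitals. TTTGAA is the core of the CHR element found in promoters of mitotic genes, and it was added to the search after the data were seen.
HLA-DMA, chr6:32953098-32953347, minus strand: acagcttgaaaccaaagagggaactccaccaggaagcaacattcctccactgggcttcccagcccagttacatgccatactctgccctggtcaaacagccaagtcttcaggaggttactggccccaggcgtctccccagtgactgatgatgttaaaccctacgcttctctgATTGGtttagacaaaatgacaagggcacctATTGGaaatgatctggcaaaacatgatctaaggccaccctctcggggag
HLA-DOB, chr6:32817003-32817252, minus strand: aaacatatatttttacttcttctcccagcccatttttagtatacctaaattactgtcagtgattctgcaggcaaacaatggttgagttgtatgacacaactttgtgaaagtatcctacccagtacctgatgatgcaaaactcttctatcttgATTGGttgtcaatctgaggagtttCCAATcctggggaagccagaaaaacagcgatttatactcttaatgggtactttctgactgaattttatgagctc
CCNB1, chr5:69166900-69167149, plus strand: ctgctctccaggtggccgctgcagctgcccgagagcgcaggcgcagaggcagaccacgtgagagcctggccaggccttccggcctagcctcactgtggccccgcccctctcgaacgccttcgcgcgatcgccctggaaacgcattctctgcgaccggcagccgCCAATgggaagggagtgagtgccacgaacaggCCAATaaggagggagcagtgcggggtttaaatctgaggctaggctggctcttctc
CCNB2, chr15:59104896-59105145, plus strand: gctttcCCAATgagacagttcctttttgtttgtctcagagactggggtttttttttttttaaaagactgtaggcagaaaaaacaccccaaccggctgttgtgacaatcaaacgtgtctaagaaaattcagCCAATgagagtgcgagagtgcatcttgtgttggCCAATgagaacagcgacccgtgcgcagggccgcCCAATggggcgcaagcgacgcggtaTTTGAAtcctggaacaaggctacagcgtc
The HLA-DMA window holds ATTGG at 79 and at 49 bases before the start, and the HLA-DOB window ATTGG at 98 and CCAAT at 74 bases. In CCNB1 CCAAT stands at 87 and 55 bases before the start. In CCNB2 CCAAT stands at 244, 120, 87 and 54 bases, with TTTGAA at 29 bases, while the CCNB1 window holds no TTTGAA. Searched on both strands, CCAAT was present in 10 of 11 MHC class II promoters (90.9%) and 18 of 21 G2/M promoters (85.7%), against 35.1% of the 10399 tested genes with a RefSeq promoter. Among genes named by size over both times, it was present in 2 of 5 promoters of risers (40%) and 1 of 8 of fallers (12.5%). TTTGAA was present in 12 of 21 G2/M promoters (57.1%) and 4 of 11 MHC class II promoters (36.4%), against 8.33% of all. GGGCGG, the core of the Sp1 site, was present in 16 of 21 G2/M and 2 of 11 MHC class II promoters, against 66.7% of all. A match describes the letters of a window and is no measurement of a bound factor.

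All 13 MHC class II genes tested rose at 14 days, with a median log2 fold change of 0.69. Without DMSOP or DMSOV 8 of them rose, with any other library left out 10 to 13, and 9 with the DMSO libraries of both times pooled. HLA-DMA, which loads peptide onto class II molecules, stood at 356 and 342 CPM in DMSO and 1037 and 1359 CPM with the inhibitors (log2 fold change 1.78 ± 0.15, adjusted p = 9.64e-07). HLA-DOB, part of HLA-DO, which restrains that loading, stood at 4.4 and 3.5 CPM and 33.1 and 26.1 CPM (log2 fold change 2.90 ± 0.25, adjusted p = 1.11e-06). CD74, the invariant chain, went from 6794 and 7001 CPM to 12058 and 10216 CPM (log2 fold change 0.69 ± 0.14, adjusted p = 0.000911). In these genes the inhibitor libraries lay above all 3 DMSO libraries, including that of 6 h. HLA-DRA, the alpha chain of HLA-DR, rose less, from 4597 and 4339.9 CPM to 5588 and 6465 CPM (log2 fold change 0.43 ± 0.12, adjusted p = 0.0111). It lost its call with either 14 day DMSO library or the vorinostat library left out (adjusted p = 0.0796 without DMSOP, 0.145 without DMSOV and 0.114 without vorinostat) and with the DMSO libraries of both times pooled (0.31, adjusted p = 0.0979). CIITA went from 665 and 677 CPM to 1072 and 909.5 CPM (log2 fold change 0.56 ± 0.13, adjusted p = 0.00292), with an adjusted p of 0.0577 without DMSOP. At 6 h CIITA had fallen, from 814 CPM to 394 and 393 CPM (log2 fold change -1.05 ± 0.15, adjusted p = 0.000369), and 5 of the 13 class II genes were lower and none higher, a count of 2 without DMSOP, DMSOV or with the DMSO libraries pooled and of 3 without the 14 day vorinostat library. MHC class I genes showed no such common direction at 14 days, with 3 of 14 higher and 4 lower, counts that ran from 1 to 4 and from 2 to 5 without 1 library.

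All 25 G2/M genes fell at 14 days, with a median of -2.12, and did so with any 1 library left out and with the DMSO libraries pooled. MKI67 went from 554 and 633 CPM to 149 and 93.1 CPM (log2 fold change -2.29 ± 0.22, adjusted p = 2.79e-06). The mitotic cyclin CCNB1 went from 377 and 350.1 CPM to 84 and 58.5 CPM (log2 fold change -2.35 ± 0.19, adjusted p = 7.31e-07), the topoisomerase TOP2A from 738 and 775 CPM to 293 and 221 CPM (log2 fold change -1.56 ± 0.16, adjusted p = 3.51e-06) and the mitotic kinesin KIF14 from 95.2 and 104 CPM to 15.5 and 11 CPM (log2 fold change -2.90 ± 0.17, adjusted p = 6.12e-08). Both inhibitor libraries of each gene lay below all 3 DMSO libraries. Of 25 genes of G1/S and replication 24 fell and none rose (median -1.58). The helicase subunit MCM4 went from 766 and 738 CPM to 198 and 135 CPM (log2 fold change -2.17 ± 0.19, adjusted p = 1.33e-06), the ribonucleotide reductase subunit RRM2 from 234 and 225 CPM to 58 and 41.3 CPM (log2 fold change -2.21 ± 0.28, adjusted p = 6.74e-05), and the polymerase POLE from 188 and 187 CPM to 41.4 and 27.9 CPM (log2 fold change -2.43 ± 0.18, adjusted p = 3e-07). Of 20 DNA repair genes 18 fell and none rose (median -1.67). Among chromatin genes, the Polycomb methyltransferase EZH2 went from 151 and 153 CPM to 101 and 86.6 CPM (log2 fold change -0.69 ± 0.14, adjusted p = 0.0009) and the acetyltransferase HAT1, which acetylates new histones, from 104 and 94.9 CPM to 50.2 and 46.9 CPM (log2 fold change -1.04 ± 0.16, adjusted p = 0.000149). Over the whole list, 8 of 11 acetyltransferases fell, and 5 without DMSOP or DMSOV. Of 10 HDAC genes 4 rose and none fell (1 rose without DMSOP, 2 without DMSOV or pracinostat), of which HDAC11 kept its call without any 1 library, from 3.88 and 3.21 CPM to 9.25 and 10.5 CPM (log2 fold change 1.47 ± 0.30, adjusted p = 0.00108).

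CDKN1A was not called at 14 days, with 8.03 and 4.96 CPM in DMSO and 8.09 and 8.81 CPM with the inhibitors. APAF1 was likewise at 37.7 and 31.7 CPM and 34.7 and 37.1 CPM. Of the 12 HDAC inhibitor response genes 4 rose and 3 fell at 14 days (median 0.18), and 1 fell without DMSOP. H1F0 was among the 3, from 347 and 327 CPM to 234 and 149 CPM (log2 fold change -0.82 ± 0.23, adjusted p = 0.0108), with adjusted p of 0.0545 without DMSOP, 0.0884 without vorinostat and 0.0679 by DESeq2. TXNIP, an inhibitor of thioredoxin and of glucose uptake, went the other way, from 0.906 and 1.75 CPM to 20.7 and 40.9 CPM (log2 fold change 4.53 ± 0.41, adjusted p = 1.5e-06), although its DMSO libraries held few counts.

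B-cell surface and signalling genes were higher at 14 days. Of 27 B-cell identity genes 14 rose and none fell (median 0.42), a count that was 8 without DMSOP or DMSOV, 10 to 17 without another library and 10 with the DMSO libraries pooled. MS4A1 went from 1731 and 1878 CPM to 5205 and 6649 CPM (log2 fold change 1.72 ± 0.14, adjusted p = 8.99e-07), CD22, an inhibitory coreceptor, from 84.4 and 91.3 CPM to 354 and 332 CPM (log2 fold change 1.97 ± 0.13, adjusted p = 1.43e-07), and PAX5 from 474 and 500.2 CPM to 813 and 791 CPM (log2 fold change 0.72 ± 0.13, adjusted p = 0.000413). The inhibitor libraries of MS4A1, CD22 and PAX5 lay above all 3 DMSO libraries. PRKCB reached a log2 fold change of 5.35 ± 0.22 at 14 days (adjusted p = 4.41e-09). CR2, the complement receptor CD21, went from 1.29 and 0.73 CPM to 17.9 and 16 CPM (log2 fold change 4.02 ± 0.34, adjusted p = 9.16e-07). Of 18 germinal centre genes 11 rose and 2 fell (median 0.75), STAP1, an adaptor of the B-cell receptor, from 1.17 and 1.61 CPM to 27 and 26.4 CPM (log2 fold change 4.26 ± 0.29, adjusted p = 1.62e-07) and BCL6, the repressor that defines the germinal centre programme, from 655 and 662 CPM to 985 and 977 CPM (log2 fold change 0.58 ± 0.12, adjusted p = 0.00161). The 6 h DMSO library held 453 CPM of BCL6.

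Of 14 genes of B-cell activation and homing 8 rose and 2 fell at 14 days, with a median of 1.89. CCR7, the receptor that directs lymphocytes to lymph nodes, went from 6.6 and 8.18 CPM to 181 and 368 CPM (log2 fold change 5.22 ± 0.32, adjusted p = 3.76e-07). The hyaluronan receptor CD44 went from 203 and 209 CPM to 774 and 1174 CPM (log2 fold change 2.24 ± 0.18, adjusted p = 5.29e-07), the activation marker CD83 from 313 and 308 CPM to 811 and 997 CPM (log2 fold change 1.54 ± 0.17, adjusted p = 7.39e-06) and the cytokine subunit EBI3 from 2.2 and 1.9 CPM to 15.9 and 18.9 CPM (log2 fold change 3.07 ± 0.33, adjusted p = 6.1e-06). None of these 4 genes was called at 6 h, and none overlapped between inhibitor and DMSO libraries at 14 days. Such separation was common among all genes tested. IRF4, a factor of activated and plasma cells, was 1 of the 2 lower genes of this list, from 502 and 497 CPM to 184 and 146 CPM (log2 fold change -1.60 ± 0.20, adjusted p = 2.18e-05). Of 16 AP-1 and immediate early genes 14 rose and none fell (median 1.72). EGR1 went from 3.24 and 4.09 CPM to 34 and 34.4 CPM (log2 fold change 3.22 ± 0.31, adjusted p = 2.8e-06) and JUN from 2.33 and 1.75 CPM to 9.37 and 10.7 CPM (log2 fold change 2.28 ± 0.32, adjusted p = 5.76e-05). NFKBIE, an inhibitor of NF-kB and 1 of 6 of 16 NF-kB genes that rose, went from 20.8 and 21.8 CPM to 46.9 and 60.9 CPM (log2 fold change 1.34 ± 0.17, adjusted p = 2.54e-05), a call that did not hold with the DMSO libraries pooled (0.70, adjusted p = 0.184).

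ITGAM and ITGAX, neighbours on chromosome 16 (chr16:31259967-31332892 and chr16:31355134-31382997, both plus strand, hg38), code for alpha chains of leukocyte integrins, CD11b and CD11c. ITGAX stood at 0.259 and 0.438 CPM in DMSO and 40.1 and 58.5 CPM with inhibitor at 14 days, and at 0.443 CPM and 0.501 and 0.354 CPM at 6 h (adjusted p at 14 days = 2.54e-08). ITGAM stood at 0 and 0.146 CPM and 10.7 and 14.9 CPM at 14 days, with at most 3 counts in any library of 6 h (adjusted p at 14 days = 9.78e-07). Both genes were thus near 0 in 5 libraries and clearly counted in the pair of 14 day inhibitor libraries. Both are also myeloid genes. ITGAM made up most of the summed myeloid markers, which reached 20.0 and 16.3 CPM there, whereas CSF1R and CD33 did not pass 7.19 and 2.18 CPM in any library. CD14, CD68 and LYZ were not analysed here, and the part of myeloid cells in these values was not tested. COL1A1, a collagen of stromal cells, also rose, from 4.4 and 4.23 CPM to 56.9 and 36.7 CPM (log2 fold change 3.43 ± 0.28, adjusted p = 6.44e-07), while EPCAM fell, from 285 and 282 CPM to 89.8 and 86.4 CPM (log2 fold change -1.69 ± 0.13, adjusted p = 4.61e-07).

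**Figure D2:**
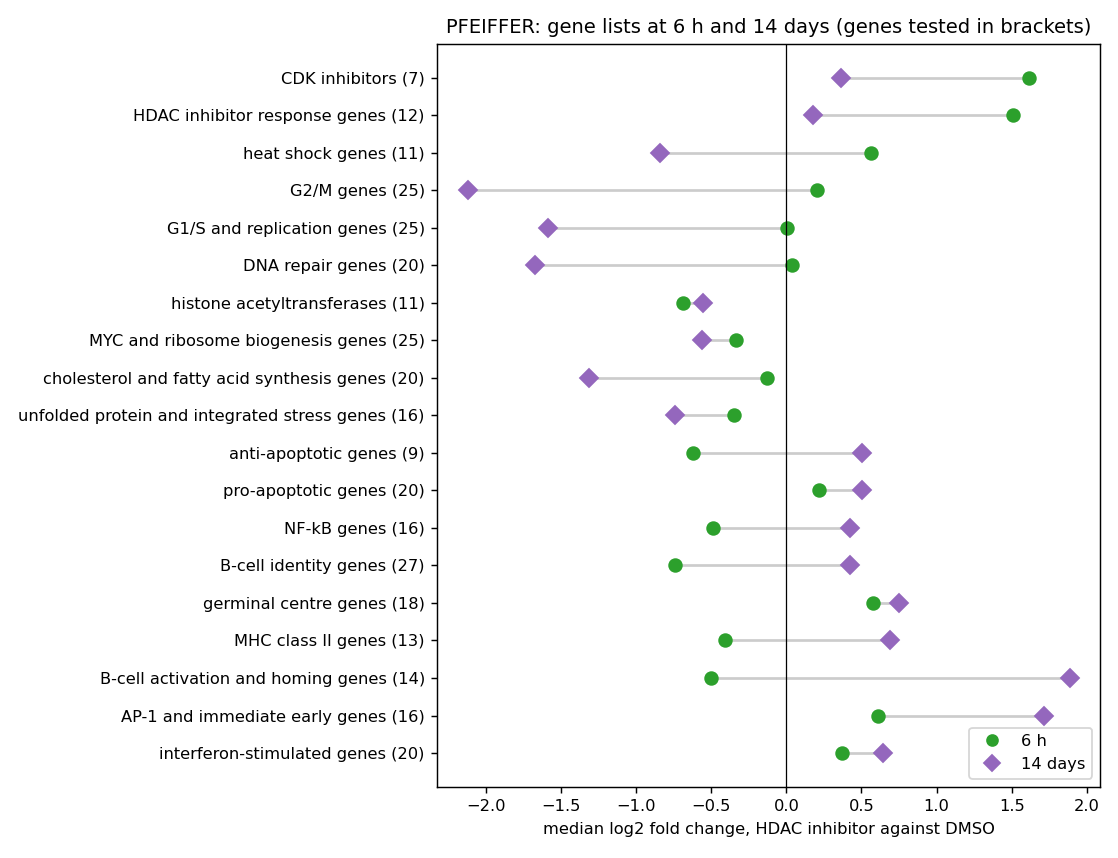
Median log2 fold change of each gene list with inhibitor against DMSO at 6 h and at 14 days, 1 pair of points a list. The G2/M, G1/S, DNA repair and cholesterol lists lie below 0 at 14 days, whereas the B-cell identity, activation and MHC class II lists lie below 0 at 6 h and above 0 at 14 days.

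Genes of lipid synthesis and, in lower shares, of glycolysis and stress responses fell at 14 days. Of 20 genes of cholesterol and fatty acid synthesis 18 fell and none rose (median -1.32), and 18 or 19 fell without any 1 library. SCD, the stearoyl-CoA desaturase, went from 1124 and 1116 CPM to 217 and 210.0 CPM (log2 fold change -2.39 ± 0.15, adjusted p = 7.85e-08), the desaturase FADS2 from 498 and 486 CPM to 95.3 and 75.1 CPM (log2 fold change -2.53 ± 0.15, adjusted p = 6.12e-08), and SQLE, a step of cholesterol synthesis, from 299 and 295 CPM to 79.9 and 91.8 CPM (log2 fold change -1.79 ± 0.15, adjusted p = 8.14e-07). Every inhibitor library of 14 days lay below all 3 DMSO libraries in these genes. Of 18 glycolysis genes 11 fell and 3 rose, LDHA, the lactate dehydrogenase, from 1161 and 1108 CPM to 391 and 276 CPM (log2 fold change -1.77 ± 0.20, adjusted p = 9.65e-06). Without DMSOP 7 glycolysis genes fell and 1 rose, and without DMSOV 1 rose. Of 16 genes of the unfolded protein and integrated stress responses 9 fell and 1 rose. ATF4, the transcription factor of that response, went from 634 and 628 CPM to 275 and 294 CPM (log2 fold change -1.15 ± 0.14, adjusted p = 1.44e-05) and its target CHAC1 from 18.3 and 26 CPM to 3.85 and 3.32 CPM (log2 fold change -2.61 ± 0.27, adjusted p = 5.23e-06). Of 11 heat shock genes 8 fell and none rose, HSPD1, the mitochondrial chaperone HSP60, from 1238 and 1172 CPM to 484 and 459 CPM (log2 fold change -1.35 ± 0.18, adjusted p = 4.6e-05). Of 25 MYC and ribosome biogenesis genes 18 fell and none rose, while MYC itself stood at 171 and 172 CPM and 196 and 135 CPM and was not called.

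Genes of cell death rose on both sides at 14 days. Of 20 pro-apoptotic genes 11 rose and 2 fell (median 0.50), and of 9 anti-apoptotic genes 5 rose and none fell (median 0.50), beside a median of 0.07 over all genes. BMF and the BH3-only gene HRK were among the higher, HRK from 2.07 and 2.92 CPM to 10 and 9.1 CPM (log2 fold change 1.94 ± 0.31, adjusted p = 0.00017). The death receptor FAS went from 7.77 and 7.45 CPM to 16.4 and 23.3 CPM (log2 fold change 1.38 ± 0.24, adjusted p = 0.000343). PMAIP1, the BH3-only protein NOXA, was 1 of the 2 that fell, from 41.3 and 49.2 CPM to 14.5 and 15.2 CPM (log2 fold change -1.61 ± 0.19, adjusted p = 1.6e-05). On the survival side BCL2 went from 105 and 109.6 CPM to 167 and 189 CPM (log2 fold change 0.73 ± 0.13, adjusted p = 0.000432) and BCL2L1 from 95.8 and 95.8 CPM to 151 and 150.5 CPM (log2 fold change 0.65 ± 0.13, adjusted p = 0.00124). With the DMSO libraries of both times pooled the call of BCL2L1 did not hold (0.25, adjusted p = 0.46), its 6 h DMSO level being 189 CPM. The anti-apoptotic count was 3 without DMSOP or DMSOV, and the pro-apoptotic count 7 without DMSOP or the vorinostat library. Of the lowest fold changes at 14 days, ERFE, the hormone erythroferrone, went from 9.32 and 9.2 CPM to 0.642 and 0.289 CPM (log2 fold change -4.24 ± 0.45, adjusted p = 5.42e-06) and the metallothionein MT1G from 3.63 and 3.36 CPM to 0.257 and 0.144 CPM (log2 fold change -3.99 ± 0.53, adjusted p = 4.15e-05). Both genes rested on at most 5 counts in either inhibitor library.

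The change of the response between the times was tested as the 14 day effect minus the 6 h effect, each against its own DMSO. It was called in 3881 genes (25.3%), 1852 in the upward direction (12.1%) and 2029 in the downward direction (13.2%), and the count was 2104 without DMSOP and 2172 without DMSOV. DESeq2 split its calls further, into 1073 upward and 1820 downward. Genes called at both times numbered 2256. They made up 57.3% of the 6 h calls, while 47% of all genes tested were called at 14 days. They made up 31.3% of the 14 day calls, while 25.7% of all genes tested were called at 6 h. Of the 2256 genes, 1030 were higher and 770 lower at both times, 238 went from higher to lower and 218 from lower to higher.

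All 13 MHC class II genes moved upward between the times (median difference 1.15), and 7 did without DMSOV. Of 27 B-cell identity genes 18 moved up and 1 down (median 1.29). None moved down in the activation and homing list (10 of 14 up, median 2.22), the NF-kB list (10 of 16 up, median 1.08), the anti-apoptotic list (6 of 9 up, median 1.05), the mitochondrially encoded list (12 of 15 up, median 0.91) or the ribosomal protein list (14 of 22 up, median 0.71). The ribosomal protein count was 5 without DMSOP, 4 without DMSOV and 8 without the 14 day vorinostat library. All 25 G2/M genes moved down (median -2.28), as did 22 of 25 G1/S genes, 16 of 20 DNA repair genes, 9 of 11 heat shock genes, 15 of 20 cholesterol and fatty acid genes and 3 of 7 CDK inhibitor genes, of which 1 did without DMSOP. The largest upward difference among genes whose log2 CPM averaged 2 or more was that of ITGAX, described above (difference 7.18 ± 1.51, adjusted p = 0.00387). ITGAX was near 0 in all but the 14 day inhibitor libraries, so the size of this difference rests on few counts. EVI2B, a membrane protein of blood cells, went from 11.5 CPM to 4.51 and 2.95 CPM at 6 h and from 3.37 and 3.5 CPM to 78 and 127 CPM at 14 days (difference 6.55 ± 0.47, adjusted p = 2.78e-06). AKAP5, a scaffold for kinases and calcineurin, went from 18.5 CPM to 15 and 13.9 CPM and from 5.05 and 6.72 CPM to 393 and 286 CPM (difference 6.21 ± 0.33, adjusted p = 3.24e-07). For both genes the 6 h DMSO library stood above the 14 day DMSO libraries. IL10 went from lower at 6 h to higher at 14 days, where it stood at 2.07 and 1.9 CPM in DMSO and 11.9 and 10.5 CPM with inhibitor (difference 6.43 ± 0.55, adjusted p = 1.02e-05). The cytokine gene IL16 went from 7.77 and 6.28 CPM to 90.8 and 212 CPM at 14 days, against 27.6 CPM and 13.5 and 5.67 CPM at 6 h (difference 6.00 ± 0.83, adjusted p = 0.00291). In the downward direction MT1G led, from 5.9 CPM to 12.9 and 13.6 CPM at 6 h beside the fall at 14 days (difference -5.15 ± 0.63, adjusted p = 9.53e-05). Further genes moving down were the formin DIAPH3 and the DNA glycosylase NEIL3, with differences of -3.51 ± 0.31 (adjusted p = 1.03e-05) and -3.51 ± 0.45 (adjusted p = 0.000124). APAF1, called at 6 h and not at 14 days, had a difference of -2.44 ± 0.30 (adjusted p = 9.89e-05), and CDKN1A one of -1.25 ± 0.39 (adjusted p = 0.0308). The CDKN1A call did not hold without DMSOP (adjusted p = 0.234), without the 14 day pracinostat library (0.0795) or by DESeq2 (0.0521). HDAC7 and PHF19, which had fallen at 6 h, were not lower than DMSO by the test at 14 days, with differences of 1.94 ± 0.20 (adjusted p = 2.58e-05) and 2.17 ± 0.21 (adjusted p = 1.94e-05).

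**Figure D3:**
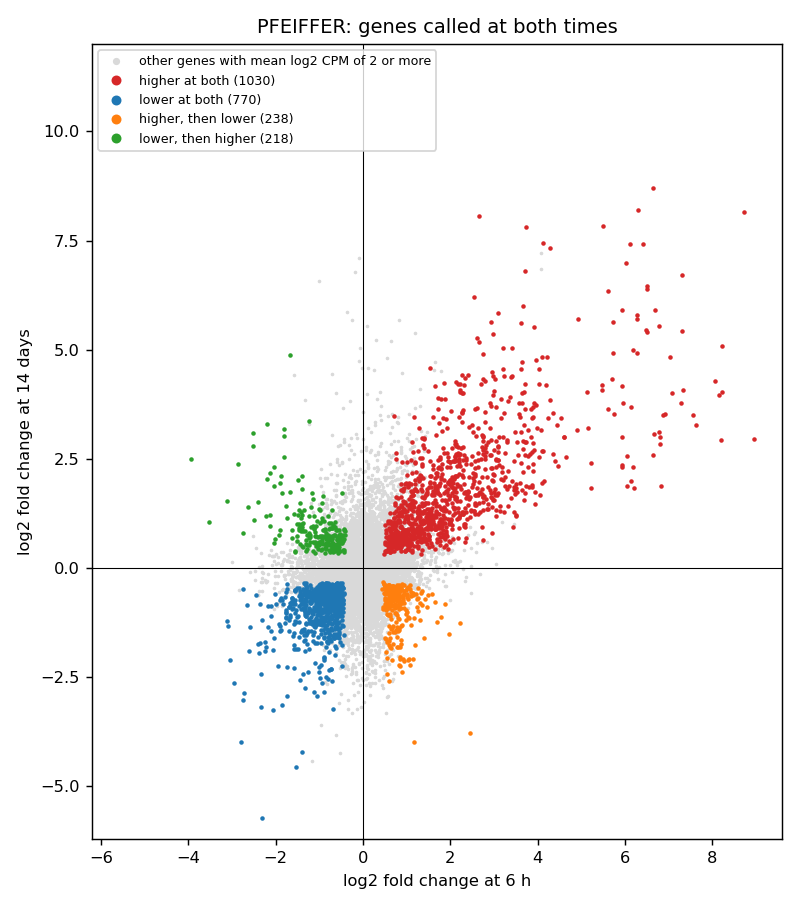
Log2 fold change at 6 h (x axis) and at 14 days (y axis) of the 2256 genes called at both times in PFEIFFER (coloured points), with other genes whose log2 CPM averaged 2 or more in grey. Of these, 1030 are higher and 770 lower at both times, 218 are lower at 6 h and higher at 14 days, and 238 the reverse.

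Vorinostat and pracinostat, a pair of hydroxamic acids, were compared within each time, with time as a block and without DMSO libraries in the contrast. No gene passed (0%) by edgeR, where 351 genes had an unadjusted p under 0.05, and none passed by DESeq2 (149 unadjusted) or limma (325 unadjusted). The median absolute difference was 0.161 on the log2 scale over 11467 genes, and its 95th percentile 0.566. The fit gave the inhibitors 1 effect for both times, so its spread also held the difference of that effect between the times. Without the 6 h DMSO library, 2085 genes had an unadjusted p under 0.05 by edgeR and 3 passed. The intervals are wide. For CDKN1A vorinostat minus pracinostat was -0.07 (95% interval -1.02 to 0.87), for MS4A1 0.20 (-1.58 to 1.98), for BASP1 -0.24 (-1.35 to 0.87) and for HLA-DMA 0.32 (-0.83 to 1.46). These intervals do not show that the compounds act alike, and since no dose was given the doses may differ.

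The last comparison set the response of PFEIFFER against the mean response of OCILY1, SUDHL4, TOLEDO and WSUDLCL2, the 4 lines with the same 7 kinds of library. Over 11230 genes the 6 h effect of PFEIFFER correlated with the mean of the other lines at 0.68, beside 0.67 to 0.79 for each other line against its own rest, and at 14 days at 0.65, beside 0.56 to 0.71. These are descriptions over genes, which are not independent replicates. Of 17612 genes tested over both times, 3.96% (698) were called as differing from the mean of the other lines, 322 higher (1.83%) and 376 lower (2.13%). The same contrast called 497 genes for OCILY1 (2.82%), 311 for SUDHL4 (1.77%), 739 for TOLEDO (4.2%) and 324 for WSUDLCL2 (1.84%). At 6 h 166 genes were called (0.943%), 66 higher (0.375%) and 100 lower (0.568%), and at 14 days 876 (4.97%), 440 higher (2.5%) and 436 lower (2.48%). Leaving out a library lowered these counts, at 14 days to 389 without DMSOP, 428 without DMSOV and 530 and 478 without pracinostat and vorinostat, and at 6 h to 105 and 82 without them. On the authors' normalized values limma called more genes higher than lower, 486 and 303 over both times, 151 and 77 at 6 h and 557 and 340 at 14 days. These tests use the spread between libraries of a line. Measured against the spread of effects between lines, 3 genes remained over both times, 0 at 6 h (limma, 1044 at an unadjusted p under 0.05) and 9 at 14 days, among them BASP1, MME and TXNIP. The calls below thus say that PFEIFFER differed from the mean of these 4 lines, and for most genes not that it differed from what lines vary among themselves. The genes described by list were chosen after their values were seen.

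**Figure D4:**
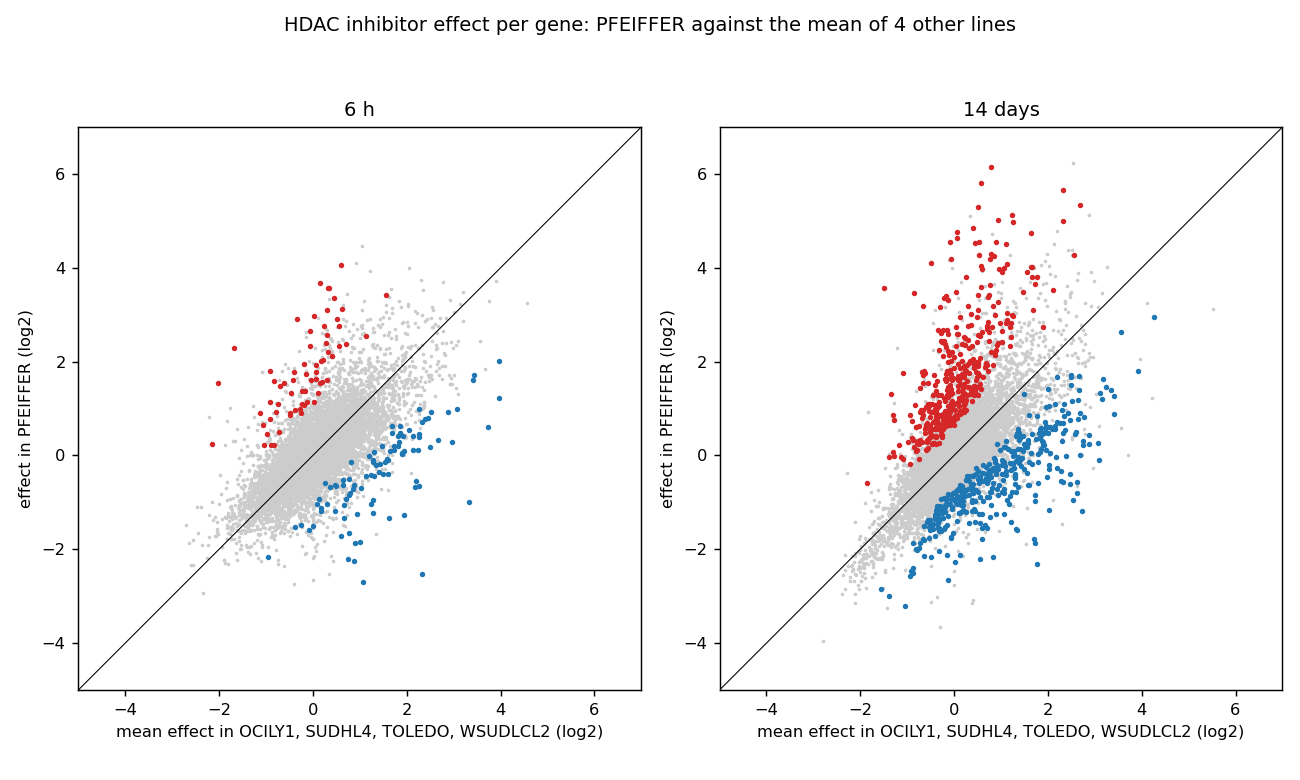
Effect of the inhibitors on each of 11230 genes in PFEIFFER (y axis) against the mean effect in the 4 other lines (x axis), at 6 h and at 14 days, in log2 CPM with a prior count of 2. Red points were called higher in PFEIFFER than the mean of the other lines, blue points lower, and the correlation is 0.68 at 6 h and 0.65 at 14 days.

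The leading genes that rose further in PFEIFFER than elsewhere were silent or low in PFEIFFER DMSO and already expressed in most of the other lines. In this and the next paragraphs levels are mean CPM of a line, with all lines scaled together. Effects are differences of log2 CPM with a prior count of 2, printed for OCILY1, SUDHL4, TOLEDO and WSUDLCL2 in that order. Folds above the limit of 0 counts are instead those of the lower inhibitor library, with the PFEIFFER libraries scaled alone. MEF2C, a transcription factor of germinal centre B cells (chr5:88717117-88904257, minus strand, hg38), had no count in any PFEIFFER DMSO library. At 14 days it reached 7.07 CPM, at least 14.5-fold above the limit that 0 counts allow, while DMSO levels in the other lines were 149, 197, 12.7 and 234 CPM. The effect was 4.56 in PFEIFFER and 0.72, 0.06, 1.44 and -0.07 in the others (edgeR, adjusted p = 3.55e-07). GPR18, a G protein-coupled receptor of lymphocytes (chr13:99254714-99261744, minus strand, hg38), went from 0.131 to 17.4 CPM in PFEIFFER and stood at 57.1, 56.3, 40.3 and 33.1 CPM in DMSO of the others. Its effect was 5.30 against 0.00, 0.69, -0.17 and 1.50 (adjusted p = 2.48e-08). With inhibitor both genes remained below the DMSO level of each of the other lines. BASP1 went from 0.454 to 54 CPM, with 168, 105, 65.8 and 192 CPM in the DMSO libraries of the others and effects of 6.15 against 0.40, 1.45, 0.23 and 1.05 (adjusted p = 5.16e-10). STAP1 went from 1.32 to 26.2 CPM, with 207, 190.2, 11.3 and 138 CPM elsewhere and effects of 4.03 against 0.53, -0.02, 1.08 and 0.74 (adjusted p = 2.48e-08). TXNIP, from 1.26 to 30.2 CPM, had DMSO levels of 179.7, 59.5, 112 and 44.9 CPM elsewhere and effects of 4.24 against 0.56, 1.02, 0.86 and 1.01 (adjusted p = 0.000101). ANK3, an ankyrin, had no count in PFEIFFER DMSO of 14 days and reached 4.07 CPM, at least 9.10-fold above the limit, with effects in the others of -0.05, 0.43, 0.04 and 0.57 (adjusted p = 1.41e-05). For these 6 genes the effect of PFEIFFER lay above that of each of the other lines. An effect outside their range was a condition for naming genes by size in this comparison, so this is no separate result.

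PTCH1, the receptor and target gene of the Hedgehog pathway (chr9:95442980-95517057, minus strand, hg38), stood apart at both times. At 6 h it went from 0.821 to 14.2 CPM and at 14 days from 0.847 to 20.9 CPM, while the DMSO libraries of the others held 60.9, 50.2, 60.6 and 56.6 CPM at 14 days. The 6 h effect was 3.68 in PFEIFFER and 0.43, -0.10, 0.29 and 0.00 elsewhere (adjusted p = 0.00226), and the 14 day effect 4.19 against 0.13, 0.61, 0.10 and -1.10 (adjusted p = 5.45e-07). The Notch coactivator MAML3 rose in PFEIFFER at 6 h, from 0.685 to 11.5 CPM, but had a positive effect of some size in TOLEDO too. Its effects were 3.57 against 0.13, -0.13, 2.35 and -1.07 (adjusted p = 0.0007). FAM43A, with no count in PFEIFFER DMSO at 6 h, reached 5.09 CPM, at least 8.80-fold above the limit, with effects elsewhere of 1.16, -0.59, 1.53 and 0.25 (adjusted p = 0.00693).

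A second group of genes was expressed in PFEIFFER DMSO and low in most of the others, where the effect was positive. CCDC110 stood at 73.2 CPM in PFEIFFER DMSO at 6 h and 36.6 CPM with inhibitor, while the others went from 3.6, 0.634, 0.919 and 0.14 to 23.9, 6.76, 11.8 and 9.82 CPM (effects -1.0 against 2.62, 2.90, 3.29 and 4.49, adjusted p = 1.14e-07). TMEM132A went from 56.4 to 9.54 CPM at 6 h, with effects of -2.53 against 2.46, 0.42, 3.48 and 2.96 (adjusted p = 4.09e-05). BATF, an AP-1 family factor of activated B cells, went from 123 to 35.1 CPM at 6 h, while no other line passed 1.43 CPM in either group (effects -1.84 against 0.62, 0.88, 0.51 and 1.98, adjusted p = 0.0015). At 14 days RYR2, a calcium release channel, went from 194 to 53.3 CPM in PFEIFFER and stood at 3.79 CPM or less in every group of the others (effects -1.87 against 0.72, 2.09, 0.41 and 3.66, adjusted p = 9.37e-05). The protease inhibitor SERPINB6 went from 36.1 to 66.4 CPM, with effects of 0.88 against 4.14, 2.01, 3.10 and 4.35 (adjusted p = 3.37e-05). The kinase gene FRK went from 69.3 to 40.3 CPM, with effects of -0.80 against 3.63, 1.69, 0.72 and 4.43 (adjusted p = 7.23e-07). IL6R, the interleukin 6 receptor, stood at 163 and 131 CPM in PFEIFFER and had effects of -0.32 against 6.65, 0.77, 0.50 and 1.20 (adjusted p = 0.015). Its call depended on 1 other line. The fitted edgeR difference was -4.97 on the log2 scale with OCILY1 and -2.86 without it (adjusted p = 0.282).

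The DMSO level in relation to the other lines was then looked up over all called genes, in the DMSO libraries of the time that the call did not use. Of the 440 genes called higher at 14 days, 217 (49.3%) were lower in PFEIFFER 6 h DMSO than in that of all 4 other lines and 53 (12.0%) higher than in all. Of the 436 genes called lower, 23 (5.28%) were below and 257 (58.9%) above. Over all genes tested the shares were 20.0% and 29.2%. The calls of 6 h, looked up in 14 day DMSO, gave 53 of 66 higher calls below all other lines (80.3%) and 1 above, and 0 of 100 lower calls below and 78 above, beside 20.1% and 28.4% of all genes. The shares are descriptions, since low counts in DMSO also widen the range of an effect.

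B-cell and antigen presentation genes also differed. Of 28 B-cell identity genes 8 rose further in PFEIFFER than the mean of the other lines at 14 days and none less, a count of 2 without DMSOP, 5 without DMSOV or pracinostat and 0 against the spread between lines. MS4A1 had an effect of 1.75 in PFEIFFER and 0.89, 0.50, 0.66 and 0.02 in the others (adjusted p = 0.000801). CD22 had 2.01 against 0.52, 0.92, 0.53 and -0.33 (adjusted p = 0.00366, and 0.0533 without DMSOP). MME, the germinal centre antigen CD10, rose from 0.479 to 8.17 CPM in PFEIFFER and fell in each of the other lines, from 366, 295, 454 and 307 to 198, 95.4, 175 and 94.7 CPM (effects 3.56 against -0.89, -1.65, -1.40 and -2.04, adjusted p = 6.94e-05). With inhibitor PFEIFFER still had far less MME than any other line. The MHC class II list went the other way, with a median 14 day effect of 0.73 in PFEIFFER and 0.98 to 1.76 in the other lines, and 3 of 13 genes called lower and 1 higher. HLA-DRA stood at 4246 CPM in PFEIFFER DMSO and 2.11, 761, 1065 and 1075 CPM in the others, and its effect was 0.47 against 3.34, 1.67, 1.23 and 1.76 (adjusted p = 0.000511). PFEIFFER thus had the highest HLA-DRA level before and after inhibitor and the lowest effect. CIITA had 0.60 against 3.80, 1.41, 0.98 and 1.75 (adjusted p = 0.00664), a call that did not hold without OCILY1 (-0.81, adjusted p = 0.184) or without the 14 day vorinostat library (adjusted p = 0.0831). HLA-DOB was the 1 gene called higher, with 2.85 against 0.73, 0.32, 1.01 and 0.85 (adjusted p = 0.000108). NLRC5, the coactivator of MHC class I, fell in PFEIFFER from 66.8 to 37.1 CPM, with effects of -0.85 against 3.14, -0.06, -0.36 and 1.05 (adjusted p = 8.02e-05).

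CDKN1A lay near its DMSO level at 14 days in PFEIFFER and well above it in the other lines. CDKN1A had a 14 day effect of 0.44 in PFEIFFER and 3.69, 1.31, 2.82 and 3.71 in the others (adjusted p = 0.00281, and 0.083 without DMSOP). Its level with inhibitor was 8.28 CPM in PFEIFFER and 141, 22.5, 161 and 89.5 CPM elsewhere. KDM5B had 0.82 against 1.30, 4.31, 0.78 and 4.65 (adjusted p = 0.00396), with 0.0508 without SUDHL4 and 0.0567 without WSUDLCL2. Of the 12 response genes 4 were called lower in PFEIFFER, CDKN1A, KDM5B, SYT11 and TUBA4A, and TXNIP higher. Without DMSOP 2 were called lower. G2/M genes did not separate PFEIFFER, as none of 25 was called and its median effect of -2.09 lay within the -3.19 to -1.19 of the other lines. POLE did, with -2.41 against -0.11, -1.06, -1.50 and -0.82 (adjusted p = 0.000312).

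Genes of survival and sterol synthesis completed the differences at 14 days. PMAIP1 had a negative effect in PFEIFFER and positive ones in the 4 others, -1.54 against 0.30, 0.23, 0.83 and 1.03 (adjusted p = 4.43e-05). Its partner MCL1, which NOXA binds and inhibits, rose in PFEIFFER from 466 to 723 CPM and had effects of 0.63 against -0.78, -0.51, -0.13 and -0.07 (adjusted p = 0.00399). SQLE went from 282 to 84.2 CPM in PFEIFFER, with effects of -1.75 against -0.06, 0.17, -0.64 and 0.24 (adjusted p = 1.12e-05). Over the cholesterol and fatty acid list 4 of 20 genes were called lower in PFEIFFER and 1 higher. The lower count was 1 without DMSOP, DMSOV, the 14 day pracinostat library or WSUDLCL2, and 2 without the 14 day vorinostat library.

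**Figure D5:**
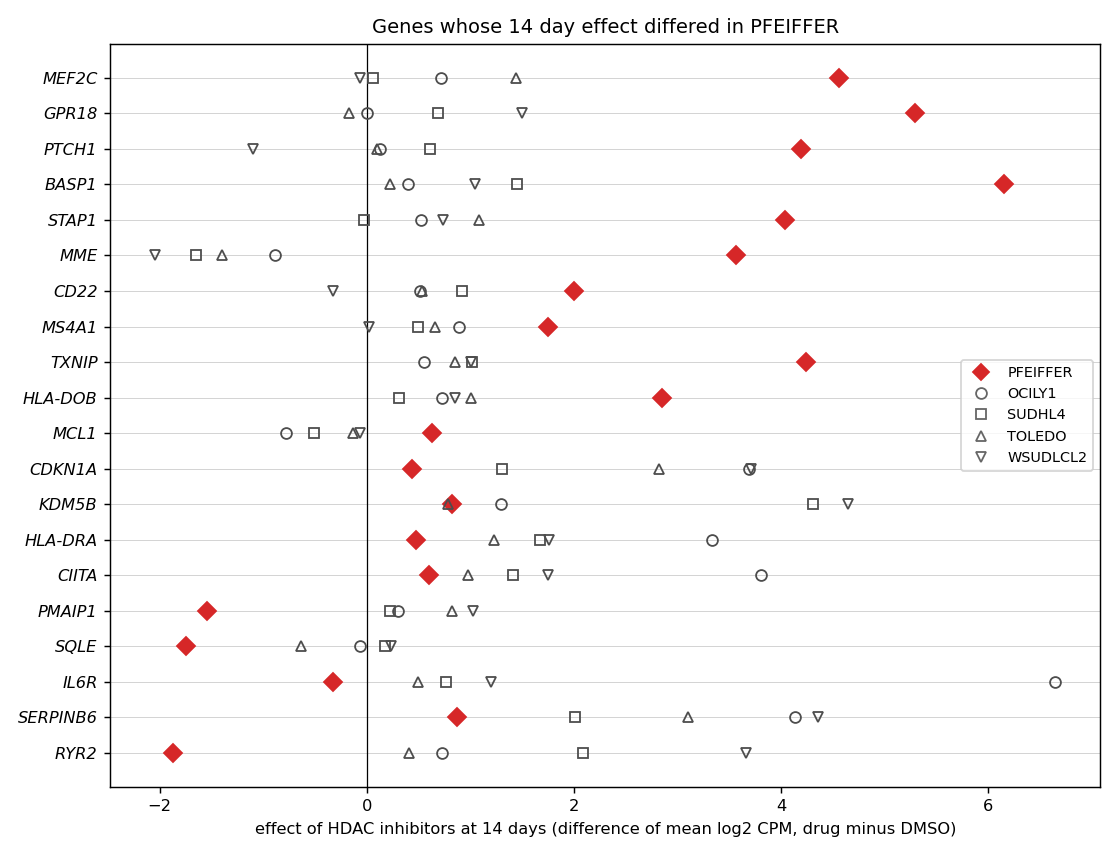
Effect of the inhibitors at 14 days on 20 genes in PFEIFFER (filled points) and in each of the 4 other lines (open points), in log2 CPM with a prior count of 2. PFEIFFER lies above the other lines for MEF2C, GPR18, PTCH1, BASP1, STAP1 and MME and below them for PMAIP1, SQLE and RYR2. Genes named by size of their difference had to lie outside the range of the other lines.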

How the data were processed

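Per the labels' protocols, Trizol was used for extraction and the Illumina TruSeq RNA kit, on 1 µg of RNA, for the libraries, and the submitters' processing notes name STAR, edgeR and hg38. For the counting, neither tool versions nor annotation and strand are given in the sources used here. The authors deposited whole read counts per gene for 18011 genes in 37 libraries, 7 of them PFEIFFER, and a normalized table of log2 CPM, used for 1 alternative. In the normalized table the column of the PFEIFFER 6 h DMSO library is named DMSOP, although its title says DMSO.

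Genes were matched to GENCODE 29 (hg38) for 17859 of 18011 identifiers. Counts were tested in R 4.3.3 with edgeR 4.0.16 (TMM, filterByExpr with a minimum count of 10 and a minimum total of 15, robust quasi-likelihood F test), with Benjamini-Hochberg adjustment over all genes tested and a threshold of 0.05. The fit over both times had time as block (4 residual degrees of freedom). The times and their difference came from a fit of 4 cells of treatment and time (3 residual degrees of freedom). The line contrasts came from a fit of all 37 libraries (15 residual degrees of freedom), with SUDHL6 kept out of the mean of the other lines. In these fits a group of 1 library takes its spread from the others. The standard error is the absolute log2 fold change over the root of F. The biological coefficient of variation of the fit over both times was 0.219. That value also holds the difference between the compounds and the difference of the inhibitor effect between the times. DESeq2 1.42.0 and limma 3.58.1 served as alternatives, as did library totals alone, DESeq2 size factors, no filter, a 2-fold limit, each library left out, each other line left out, and the DMSO libraries of both times pooled, the last chosen after seeing the data. The scripts were tested on simulated counts.

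Genes were named by size of change among called genes whose log2 CPM averaged 2 or more, without overlap of the groups (10 in each direction over both times, 5 for each time and for the difference, 8 for each line contrast), with up to 2 members a direction for each list and a fixed list of known targets, and the text gives a part of these. The members and gene lists were chosen with earlier results of these data known, so their counts are no independent evidence of direction. Promoters came from RefSeq. Limits from 3 counts cover counting error only. The 95% intervals of vorinostat minus pracinostat come from the standard error of the fit. They hold the spread between libraries and the difference of the inhibitor effect between the times.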

Additional observations from a re-analysis of the deposited data

Results flagged for a closer look

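The effect of the inhibitors on PFEIFFER cells differed between 14 days and 6 h in 3881 genes by the test of the difference itself. Among those singled out by size, the difference on the log2 scale was 7.18 for ITGAX, 6.55 for EVI2B, 6.43 for IL10, 6.21 for AKAP5 and 6.00 for IL16. In the downward direction it was -5.15 for MT1G, -3.85 for the long noncoding RNA LINC01224, -3.72 for ERFE, -3.51 for DIAPH3 and -3.51 for NEIL3. Of further genes described above, it was -2.44 for APAF1 and -1.25 for CDKN1A, and 1.94 for HDAC7 and 2.17 for PHF19. IL10 also has a 6 h DMSO level above that of 14 days, and its 6 h call does not hold with the DMSO libraries pooled.

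The effect in PFEIFFER differed from the mean of the 4 other lines in 698 genes over both times, 166 at 6 h and 876 at 14 days, by edgeR on the spread between libraries. On the scale of log2 CPM with a prior count, PFEIFFER minus the mean of the other lines at 14 days was 4.79 for GPR18, 4.26 for PTCH1 and 4.02 for MEF2C, and at 6 h 3.52 for PTCH1. It was -4.32 for CCDC110 at 6 h, and at 14 days -2.60 for IL6R, -2.52 for SERPINB6, -2.44 for CDKN1A, -1.94 for KDM5B, -1.53 for HLA-DRA and -1.39 for CIITA. Against the spread between lines none of these 10 genes kept its call.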

How the results depend on the processing

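Over both times 2146 of the 3718 called genes changed at least 2-fold. The mean of both times in the fit of 4 cells called 6578 genes, and counts without 1 library ran from 1662 to 7119. At 6 h 2070 genes changed at least 2-fold and counts without 1 library ran from 3034 to 4852. At 14 days 3541 changed at least 2-fold and counts without 1 library ran from 4527 to 8024. For the difference of the times they ran from 2104 to 5270. Against the spread between lines 3 genes differed from the mean of the other lines over both times, 0 at 6 h (limma, 1044 at an unadjusted p under 0.05) and 9 at 14 days. By edgeR on the spread between libraries, the main counts were 698, 166 and 876. Without 1 PFEIFFER library these edgeR counts ran from 486 to 588, from 82 to 140 and from 389 to 871. Vorinostat against pracinostat ran from 0 to 3, the 3 without the 6 h DMSO library. Without that library no 6 h effect, difference of times or 6 h line contrast could be computed. The number of calls with the DMSO libraries pooled was 4227 at 6 h and 6563 at 14 days.

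The letters of the 14 day titles give both groups a first and a second library, but nothing says that they share a culture or batch, and over genes DMSOP minus DMSOV did not go with pracinostat minus vorinostat (correlation -0.02). With the letter as a replicate block 2464 genes were called over both times and 6691 at 14 days.

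Of 151 values of named genes, 113 kept their call and direction under every alternative run. Against the spread between lines 27 of 30 lost their call, and BASP1, MME and TXNIP did not. Under the other alternatives 25 values from 16 of these results fell short, each given beside its gene, and none changed sign. The cause was not tested in any of these. The 1 DMSO library at 6 h and totals of 5495030 to 8359776 counts limit what can be said of genes under about 1 CPM, and the dose and the independence of the cultures are unknown here.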

Other observations

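Interferon-stimulated genes leaned upward at 14 days, with 11 of 20 higher and 4 lower (median log2 fold change 0.64, beside 0.07 over all genes), and 2 higher and none lower at 6 h. Without DMSOP 7 were higher and 1 lower at 14 days, without DMSOV 1 lower, and without the 14 day pracinostat library or with the DMSO libraries pooled 2 lower. Without pracinostat 4 were higher at 6 h. OAS3, a sensor of double-stranded RNA, stood at 2.59 and 3.8 CPM in DMSO and 20.5 and 13.9 CPM with the inhibitors (log2 fold change 2.44 ± 0.36, adjusted p = 0.000108). BST2, the antiviral protein tetherin, went from 72.1 and 86 CPM to 123 and 126 CPM (log2 fold change 0.66 ± 0.14, adjusted p = 0.00141), with an adjusted p of 0.0599 without DMSOP. The antiviral GTPase MX1 was lower, from 52.8 and 50.1 CPM to 33.6 and 23.5 CPM (log2 fold change -0.84 ± 0.17, adjusted p = 0.00131). In each of the 3 genes the groups did not overlap at 14 days, a separation that was common among all genes tested.

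Of 15 mitochondrially encoded genes 12 rose at 14 days and none fell, while of 19 nuclear genes of the respiratory chain 2 rose and 6 fell. Of 22 ribosomal protein genes 13 rose and none fell (median 0.46), 8 without DMSOP and 7 without DMSOV, beside the falls of ribosome biogenesis genes. Drug efflux genes split. MVP, the major vault protein, went from 29.4 CPM to 66.3 and 52.4 CPM at 6 h and from 27.6 and 28.5 CPM to 152 and 147 CPM at 14 days (over both times log2 fold change 1.84 ± 0.28, adjusted p = 0.00364), and the transporter ABCC4 from 135 CPM to 78.2 and 66.9 CPM and from 105 and 94.6 CPM to 25.6 and 22.4 CPM (log2 fold change -1.60 ± 0.24, adjusted p = 0.00353). ABCB1, the efflux pump P-glycoprotein, had no count in any DMSO library. It reached 4.37 and 3.47 CPM at 14 days, at least 7.92-fold above the limit that 0 counts allow (adjusted p = 3.83e-05). Of 22 p53 target genes 9 rose and 3 fell at 6 h and 11 rose and 2 fell at 14 days (5 fell without either 6 h inhibitor library). TP53INP1, which promotes p53-dependent death and autophagy, went from 2.95 CPM to 10.2 and 19.1 CPM and from 1.17 and 3.07 CPM to 36.9 and 48.5 CPM (log2 fold change 3.58 ± 0.50, adjusted p = 0.00255). BTG2, an antiproliferative target, rose at 14 days, from 81.5 and 73.1 CPM to 430.5 and 512 CPM (log2 fold change 2.61 ± 0.14, adjusted p = 3e-08).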
